A study of Homo sapiens with 6 samples.

Results

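The prolactin and growth hormone pathway of mammary epithelium was followed through 10 genes: the receptors PRLR and GHR, the kinase JAK2, the transcription factors STAT5A, STAT5B and STAT3, the feedback inhibitors SOCS2, SOCS3 and CISH, and the transcription factor ELF5. They were taken by symbol from the deposited table of 17758 genes, which holds all 10. Each was measured in 6 RNA-seq libraries of T47D, an oestrogen receptor-positive line from a human breast ductal carcinoma. Of these, 3 libraries came from cells with lentiviral short hairpin RNA against CUEDC1 (shCUEDC1) and 3 from cells with a non-targeting hairpin (shNC). Both groups were stably infected cells of the same line, kept in serum-containing RPMI medium. The design calls the 3 libraries of a group biological replicates, without saying whether each was a separate infection, so a p-value covers the spread among these 6 and no more. The number of hairpins is not stated either, so loss of CUEDC1 and other actions of the hairpin cannot be told apart.

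Prolactin and growth hormone each bring together receptors of the class I cytokine family. The kinase JAK2 sits on the receptor tails and phosphorylates STAT5A and STAT5B, which then enter the nucleus and switch on genes with a palindromic GAS motif. CISH, SOCS2 and SOCS3 are themselves induced in this way and dampen the receptor in a feedback loop. In the mouse mammary gland the pathway, with ELF5, builds the milk-secreting alveoli, and STAT3 takes part in their regression after weaning. T47D is a common model of prolactin action because of its abundant receptor.

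Library totals ran from 18924327 to 19731609 estimated reads. CUEDC1, the hairpin's target, stood at 31.4 to 33.8 CPM (reads per gene after libraries were scaled to a common total) in shCUEDC1 and at 93.3 to 110 CPM in shNC, a change of -68.9% (edgeR adjusted p = 9.27e-06). The library shNC 3 stood apart from its group. Paired with shNC 1 and shNC 2 it gave SDs of 0.246 and 0.266 for the gene-wise log2 difference. The shNC 1 and 2 pair gave 0.109, and pairs of a shCUEDC1 library with shNC 1 or 2 gave 0.235 to 0.247. Every result on the 10 genes is therefore given with and without shNC 3. All 9 luminal epithelial markers checked, among them KRT8, EPCAM, ESR1 and GATA3, were at 1 TPM (the deposited length-corrected level) or more in every library. Some markers of other cell types were present too. The sum of 5 leukocyte markers was 17.99 to 18.24 TPM in shCUEDC1 and 9.46 to 10.3 TPM in shNC, of which LYZ was 10.59 to 11.01 TPM in shCUEDC1 and 2.83 to 4.31 TPM in shNC. The leukocyte antigen PTPRC was at 0.63 to 1.11 TPM in shCUEDC1 and 0.73 to 1.33 TPM in shNC. The sum of 5 fibroblast markers was 13.98 to 17.28 TPM in shCUEDC1 and 9.74 to 12.2 TPM in shNC. Of this COL1A1 was 12.6 to 16.01 TPM in shCUEDC1 and 8.69 to 10.97 TPM in shNC. The others (COL1A2, COL3A1, PDGFRB and DCN) were each at most 1.13 TPM in shCUEDC1 and 0.72 TPM in shNC. Sums over 4 endothelial markers were at most 0.32 TPM in shCUEDC1 and 0.19 TPM in shNC. Those over 5 basal or myoepithelial markers were 33.1 to 36.5 TPM in shCUEDC1 and 29.6 to 49.8 TPM in shNC. Most of this was ACTA2, at 27.3 to 31.1 TPM in shCUEDC1 and 24.4 to 41.5 TPM in shNC, near the level of ESR1 (41.5 to 43.9 TPM in shCUEDC1 and 34.5 to 44.9 TPM in shNC). TP63 was at 4.58 to 5.19 TPM in shCUEDC1 and 4.43 to 7.05 TPM in shNC. KRT5, KRT14 and MYH11 were each at most 0.51 TPM in shCUEDC1 and 0.64 TPM in shNC. Whether other cells had a part in any result was not tested.

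Across the 10 genes, SOCS2 and ELF5 rose and STAT3 fell in shCUEDC1 cells, and the other 7 were not called. A gene is called changed when its adjusted p is below 0.05 (edgeR quasi-likelihood test, Benjamini-Hochberg adjustment over all 13824 genes tested). By that rule 9.96% of all tested genes were called, 5.19% higher and 4.77% lower in shCUEDC1. All 10 genes passed the filter on low counts. Their median log2 change, shCUEDC1 over shNC, was 0.01, and that of all genes tested was -0.004. Without shNC 3 the called genes were 5, namely PRLR, GHR, SOCS2 and ELF5 as rises and STAT3 as a fall, where 28.1% of all genes were called (14.3% higher and 13.8% lower). In bulk RNA, fewer cells that make a transcript and less of it per cell cannot be told apart.

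The set of called genes changed whichever library was left out. With shCUEDC1 1, 2 or 3 left out, edgeR called 0 of the 10 genes, although 4 had an unadjusted p below 0.05 in each of these fits. With shNC 1 left out only SOCS2 was called, where the calls over all genes were 688 of 13967 tested. With shNC 2 left out SOCS2 and ELF5 were called, where the calls over all genes were 1013 of 13955 tested. All these fits have 1 library fewer, and without a shCUEDC1 library the calls over all genes were 468 to 519, against 1377 with 6 libraries. With all 6 libraries DESeq2 called 4 of the 10 genes, adding GHR, where it called 10.6% of all genes (5.78% higher and 4.87% lower). Leaving out shNC 3 took the calls over all genes to 3925.

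Per unit of transcript length, the prolactin receptor was the most abundant of the 10 transcripts and the inhibitors SOCS2 and SOCS3 the scarcest, while CISH lay between. PRLR was the highest of the 10 genes, with a lowest, median and highest level over the 6 libraries of 228, 305 and 342 TPM, and it ranked between 437 and 726 among all genes of a library. ELF5 (158, 176 and 191 TPM) and STAT3 (145, 173 and 185 TPM) came next, and their ranges overlapped. GHR followed at 72.0, 86.0 and 89.9 TPM. CISH (27.0, 31.1 and 33.4 TPM) and STAT5B (24.7, 26.2 and 29.6 TPM) overlapped each other, with STAT5A below them at 17.2, 19.5 and 23.6 TPM. JAK2, the kinase of the pathway, was at 6.49, 7.12 and 8.53 TPM. SOCS2 and SOCS3 were lowest, at 0.53 to 3.13 TPM and 0.98 to 2.33 TPM, and overlapped.

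**Figure D1:**
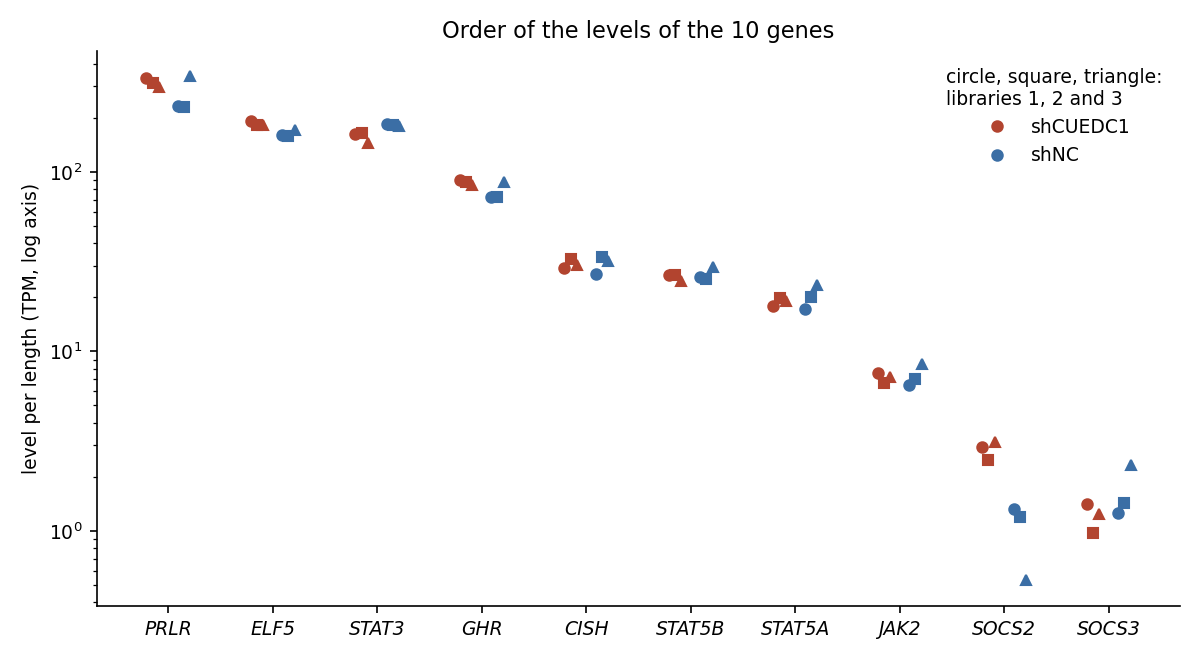
Level of each of the 10 genes in TPM on a log axis, 1 point per library, shCUEDC1 to the left of shNC. PRLR lies at 228 to 342 TPM at one end and SOCS3 at 0.98 to 2.33 TPM at the other.

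PRLR (Entrez 5618) encodes the prolactin receptor and is found at chr5:35048756-35230589 (minus strand, GRCh38, GENCODE v29). It stood at 1808, 1702 and 1684 CPM in shCUEDC1 1, 2 and 3, against 1272, 1242 and 1803 CPM in shNC 1, 2 and 3. The 3 shCUEDC1 libraries lay together, but shNC 3 fell inside their range, so the groups overlapped. The means were 1731 ± 66.7 CPM in shCUEDC1 and 1439 ± 316 CPM in shNC (SD, n = 3 each). PRLR thus differed by 0.27 on the log2 scale, with a 95% interval of -0.05 to 0.59, and was not called (edgeR adjusted p = 0.277). Without shNC 3 it was 0.47 (95% interval 0.39 to 0.55, edgeR adjusted p = 8.62e-11), a 1.38-fold higher level. The shNC side of that fit is shNC 1 and shNC 2 alone, which differed little (SD of the gene-wise log2 difference 0.109). Leaving out any other library gave a log2 change of 0.17 to 0.29 and no call.

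GHR (Entrez 2690) encodes the growth hormone receptor (chr5:42423777-42721878, plus strand). It stood at 189, 187 and 183 CPM in shCUEDC1 1, 2 and 3, against 153, 152 and 179 CPM in shNC 1, 2 and 3. The groups did not overlap, as for 31.3% of all genes tested, although shNC 3 came within a few CPM of the lowest shCUEDC1 library. With all libraries GHR differed by 0.21 ± 0.0651 (SE) on the log2 scale and missed the threshold (edgeR adjusted p = 0.0779). DESeq2 called it (adjusted p = 0.0478), and so did edgeR without shNC 3, where the log2 change was 0.29 (adjusted p = 1.49e-06). Over the alternatives its adjusted p ran up to 0.239.

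JAK2 (Entrez 3717, chr9:4984390-5128183, plus strand) encodes the tyrosine kinase shared by both receptors. It stood at 24.7, 21.8 and 24.5 CPM in shCUEDC1 1, 2 and 3, against 21.4, 23.0 and 26.9 CPM in shNC 1, 2 and 3. The groups overlapped, with shNC 3 the highest library of all. The log2 difference of JAK2 was -0.005 (95% interval -0.23 to 0.22, edgeR adjusted p = 0.980), which spans -14.5% to 16.1%. Without shNC 3 it was 0.10 (adjusted p = 0.398).

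**Figure D2:**
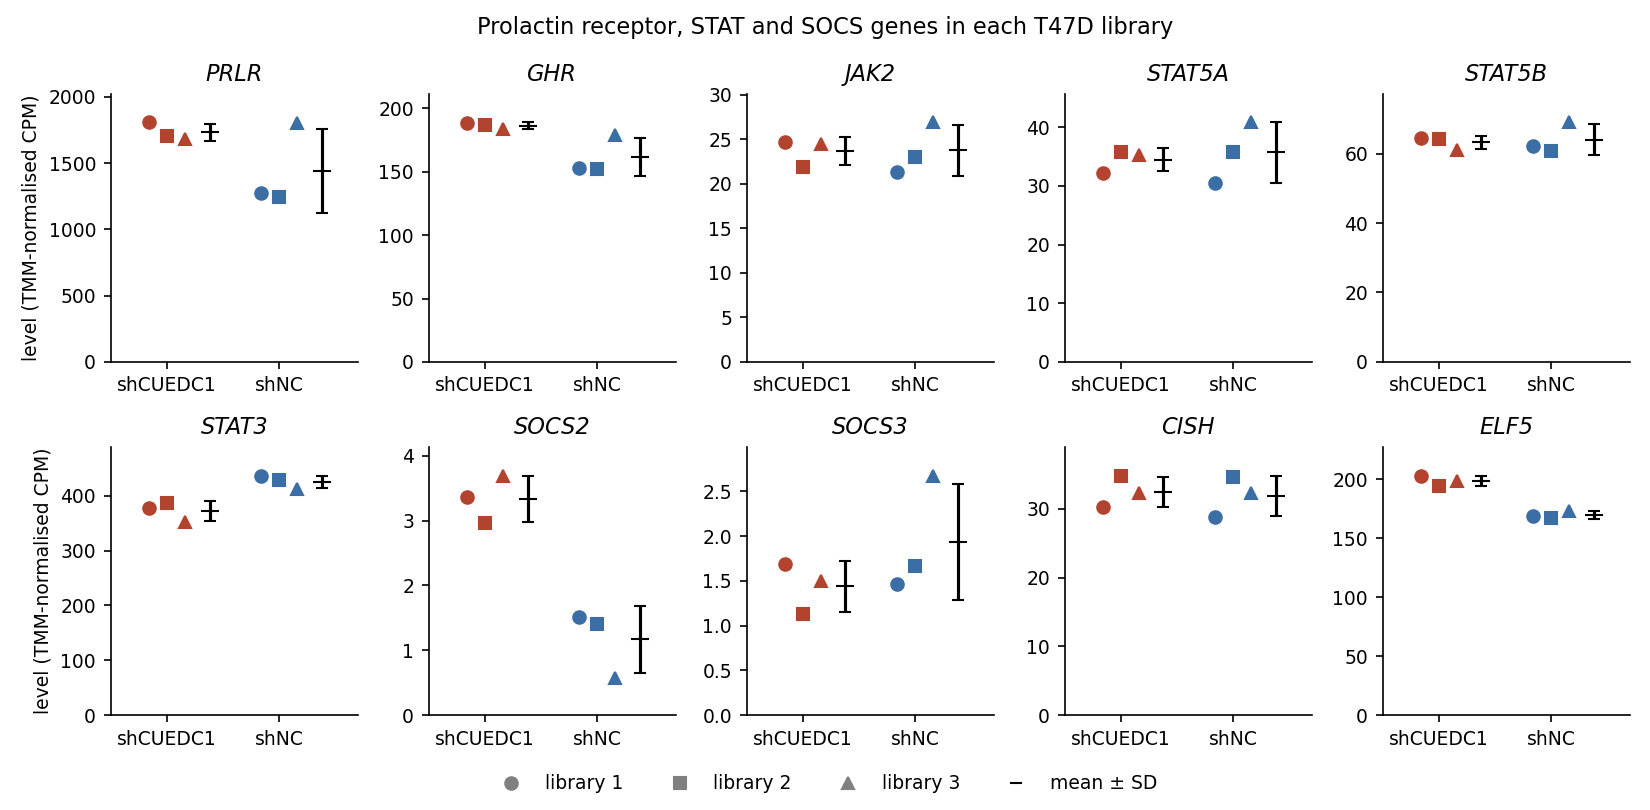
Normalised level in CPM of each gene in each library, with the axis from 0, shCUEDC1 at left and shNC at right; the bar is the mean ± SD of 3 libraries. ELF5, STAT3, GHR and SOCS2 separate the groups, as do 31.3% of all genes tested. For PRLR the shNC 3 library (1803 CPM) lies among the shCUEDC1 libraries.

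STAT5B, STAT5A and STAT3 are neighbours on chromosome 17. STAT5B (Entrez 6777) is at chr17:42199168-42276707 on the minus strand. STAT5A (Entrez 6776) is at chr17:42287547-42311943, plus strand, and STAT3 (Entrez 6774) at chr17:42313324-42388568, minus strand. The STAT5 pair share long identical stretches: 11.9% of the 50-base words of the longest coding STAT5A transcript also occur in that of STAT5B, and 10.0% the other way round. The deposited counts are fractional, and how reads common to both genes were shared out is not given in the sources used here, so the split between the pair is uncertain.

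STAT5A stood at 32.2, 35.9 and 35.3 CPM in shCUEDC1 1, 2 and 3, against 30.5, 35.7 and 40.8 CPM in shNC 1, 2 and 3. STAT5B stood at 64.5, 64.1 and 61.2 CPM in shCUEDC1 1, 2 and 3, against 62.2, 60.7 and 69.0 CPM in shNC 1, 2 and 3. For both genes shNC 3 was the highest library and the groups overlapped. The log2 difference was -0.05 for STAT5A (95% interval -0.28 to 0.18, edgeR adjusted p = 0.812). It was -0.02 for STAT5B (95% interval -0.16 to 0.13, edgeR adjusted p = 0.915). Without shNC 3 the differences were 0.06 for STAT5A and 0.05 for STAT5B, of the opposite sign and again not called.

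STAT3, which receptors of the interleukin 6 family activate, was the 1 called STAT among the 10 genes. It stood at 378, 387 and 352 CPM in shCUEDC1 1, 2 and 3, against 435, 428 and 413 CPM in shNC 1, 2 and 3. Every shCUEDC1 library lay below every shNC library, and shNC 3 was close to its group. STAT3 fell by 12.5% in shCUEDC1, or -0.19 ± 0.0494 (SE) on the log2 scale, with an edgeR adjusted p of 0.0372. The change was -0.21 without shNC 3 (adjusted p = 1.66e-04). The call was lost, by edgeR, without shCUEDC1 1 (adjusted p = 0.122), shCUEDC1 2 (0.0910), shCUEDC1 3 (0.146), shNC 1 (0.137) and shNC 2 (0.0930), with a log2 change of -0.22 to -0.15 in these fits.

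ELF5 (Entrez 2001, chr11:34478793-34513805, minus strand) encodes an ETS-family transcription factor that in the mouse directs luminal progenitors toward the alveolar fate. It stood at 203, 194 and 199 CPM in shCUEDC1 1, 2 and 3, against 169, 168 and 173 CPM in shNC 1, 2 and 3. The groups did not overlap, and shNC 3 was like the other shNC libraries. ELF5 rose by 17.0% in shCUEDC1, or 0.23 ± 0.0443 (SE) on the log2 scale, with an edgeR adjusted p of 0.0119. It was 0.24 without shNC 3 (adjusted p = 2.07e-05). By edgeR the adjusted p was 0.0753 without shCUEDC1 1, 0.0548 without shCUEDC1 2, 0.0622 without shCUEDC1 3 and 0.0559 without shNC 1, with log2 changes of 0.21 to 0.24.

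The 3 feedback inhibitors share an SH2 domain and a SOCS box, through which they block receptors and recruit ubiquitin ligases. SOCS2, which targets the growth hormone receptor for degradation, was the gene with the largest change of the 10. It stood at 3.37, 2.97 and 3.68 CPM in shCUEDC1 1, 2 and 3, against 1.52, 1.41 and 0.577 CPM in shNC 1, 2 and 3. These levels rest on 66.0, 58.2 and 71.0 estimated reads in shCUEDC1 and on 30.0, 28.0 and 10.99 in shNC. Every shCUEDC1 library was above every shNC library, and shNC 3 was the lowest of all.

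SOCS2 (Entrez 8835, chr12:93569814-93583487, plus strand) rose 2.83-fold, or 1.502 on the log2 scale, where the 95% interval was 0.84 to 2.17 (edgeR adjusted p = 0.0127). Without shNC 3 it rose 2.28-fold, or 1.19, where the interval was 0.73 to 1.65 (edgeR adjusted p = 1.33e-04). By edgeR the call was lost without shCUEDC1 1 (adjusted p = 0.0652), shCUEDC1 2 (0.0517) and shCUEDC1 3 (0.0787), with log2 changes of 1.43 to 1.58.

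SOCS3 (Entrez 9021, chr17:78356778-78360077, minus strand), the main inhibitor of receptors that signal through gp130, was at 1.68, 1.13 and 1.503 CPM in shCUEDC1 1, 2 and 3, against 1.47, 1.66 and 2.68 CPM in shNC 1, 2 and 3. The groups overlapped, and shNC 3 was the highest. The log2 difference of SOCS3 was -0.43 (95% interval -1.07 to 0.22, edgeR adjusted p = 0.406) and -0.12 without shNC 3 (adjusted p = 0.794). These values rest on 22.3 to 51.0 estimated reads per library.

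CISH (Entrez 1154, chr3:50606490-50611831, minus strand) is a textbook STAT5 target. It stood at 30.3, 34.8 and 32.3 CPM in shCUEDC1 1, 2 and 3, against 28.8, 34.7 and 32.3 CPM in shNC 1, 2 and 3. The groups overlapped over most of their range, with shNC 3 inside it. The log2 difference of CISH was 0.02 (95% interval -0.17 to 0.22, edgeR adjusted p = 0.898). It was 0.04 without shNC 3.

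The CISH promoter is shown because it carries the pathway's own response element, the STAT5 palindrome TTCNNNGAA, which reads the same on both strands. RefSeq promoter windows (GRCh38.p14, 250 bases before to 50 after a gene's start) were matched for 9 of the 10 genes, 22 windows in all, and not for SOCS2. The motif was found in 2 of them, once in 1 of the 7 windows of GHR and 4 times in the window of CISH. It occurs in 7.66% of the 35116 windows in the table, and at least 4 times in 7 of them. The matches are in capitals in the stretches below, read 5′ to 3′. The CISH stretch is chr3:50611868-50612024 on the minus strand and the GHR stretch is chr5:42549932-42549960 on the plus strand.
CISH: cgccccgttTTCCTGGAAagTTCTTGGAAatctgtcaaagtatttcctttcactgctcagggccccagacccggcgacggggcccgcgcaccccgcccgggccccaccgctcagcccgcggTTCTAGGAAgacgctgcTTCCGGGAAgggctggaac
GHR: cttgtattgcTTCAAAGAAagtagaaagt
In CISH the matches begin 241, 230, 129 and 112 bases before the start, so they form 2 pairs. A match describes the letters and is no measurement of STAT5 binding, and windows of 300 bases leave out more distant sites.

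SOCS2 and CISH were also compared within each library. There were 11.1, 8.53 and 11.4 SOCS2 reads per 100 CISH reads in shCUEDC1 1, 2 and 3, against 5.27, 4.07 and 1.79 in shNC 1, 2 and 3. The ratio was higher in each shCUEDC1 library than in any shNC library. Its mean log2 difference was 1.60 (exact two-sided permutation p = 0.1, the smallest that 3 against 3 libraries allow) and 1.15 without shNC 3. Of these 2 inhibitors, then, SOCS2 was the higher in shCUEDC1 relative to the other, though 3 against 3 libraries cannot reach a p of 0.05. CISH itself differed by only 0.02 on the log2 scale, so the ratio largely repeats the SOCS2 change of 1.502 and is no separate result.

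**Figure D3:**
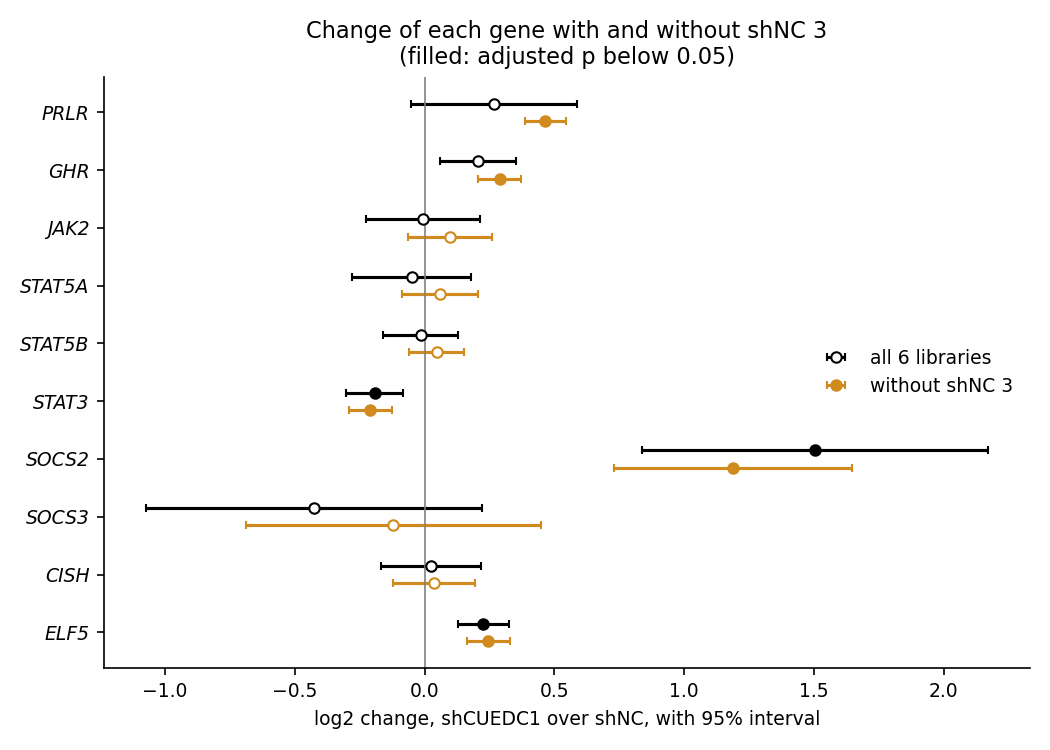
Log2 change of each gene, shCUEDC1 over shNC, with its 95% interval from edgeR, with all 6 libraries (black) and without shNC 3 (orange); filled points have an adjusted p below 0.05. PRLR moves from 0.27 with a wide interval to 0.47 with a narrow one, while STAT3 and ELF5 differ little between both fits. Without shNC 3 the shNC side is shNC 1 and shNC 2 alone, which lay close together.

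The place of shNC 3 among the 6 libraries varied between the 10 genes. It was the highest of all libraries for JAK2, STAT5A, STAT5B and SOCS3 and the lowest for SOCS2, 5 genes in all. Over all genes tested shNC 3 was the highest or lowest library for 53.8%, so the share among the 10 genes was near the background. For PRLR and CISH it lay within the range of the shCUEDC1 libraries. Relative to the mean of shNC 1 and 2, shNC 3 stood at 0.52 for PRLR, 0.77 for SOCS3 and -1.34 for SOCS2 on the log2 scale. It stood at 0.04 for ELF5 and -0.06 for STAT3, both of which were called with all 6 libraries.

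The genes most like PRLR over the 6 libraries were TIPARP, IL6ST and EHF, out of 12992 genes compared. Likeness was the root mean square difference between log2 CPM profiles centred on their own mean, and it was 0.0223, 0.0281 and 0.0298. TIPARP encodes a mono-ADP-ribosyltransferase, IL6ST the gp130 subunit through which interleukin 6 and its relatives signal to STAT3, and EHF an epithelial ETS factor related to ELF5. IL6ST stood at 981, 968 and 957 CPM in shCUEDC1 1, 2 and 3, against 702, 713 and 1019 CPM in shNC 1, 2 and 3. As with PRLR, shNC 1 and 2 were low and shNC 3 was as high as the shCUEDC1 libraries. With all 6 libraries IL6ST had an edgeR adjusted p of 0.296, TIPARP of 0.313 and EHF of 0.350. Without shNC 3 the log2 change was 0.457 for IL6ST (edgeR adjusted p = 4.08e-11) and 0.464 for EHF (3.04e-11). Both were picked for their likeness to PRLR in these same libraries. That they were called like PRLR therefore follows from the choice and is no separate result.

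The genes most like SOCS2 were TCN1, CDH10 and LUM, with a root mean square difference of 0.110, 0.162 and 0.248. TCN1 encodes a vitamin B12 binding protein, CDH10 a cadherin and LUM the matrix proteoglycan lumican. TCN1 stood at 5.35, 5.27 and 5.80 CPM in shCUEDC1 1, 2 and 3, against 2.38, 2.67 and 1.05 CPM in shNC 1, 2 and 3. All 4 genes were highest in shCUEDC1 and lowest in shNC 3. Profiles of 6 libraries in 2 groups give many genes a similar form, so likeness is a description only.

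**Figure D4:**
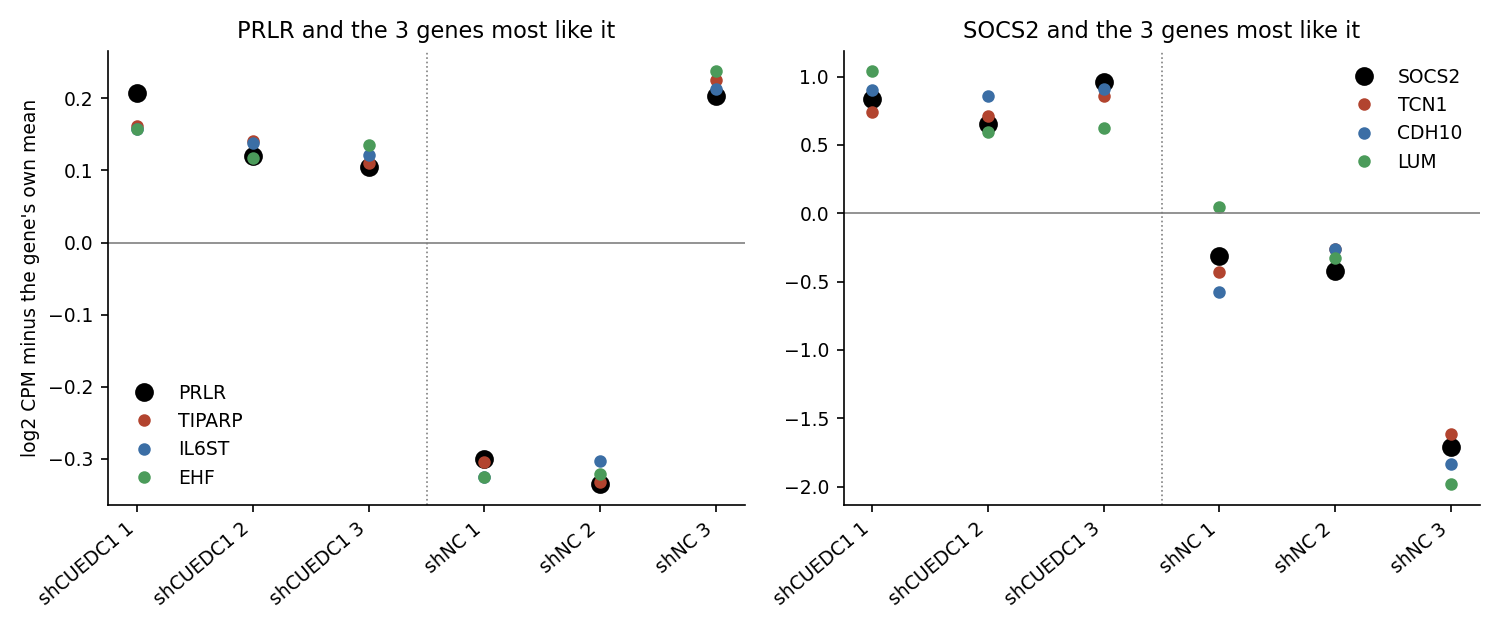
Log2 CPM minus each gene's own mean in the 6 libraries, for PRLR (left) and SOCS2 (right) with the 3 genes most like each. For PRLR the shNC 3 points lie with shCUEDC1; for SOCS2 they lie farthest below it.

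The wider pathway was read from 8 lists of ligands, receptors, kinases, inhibitors, partners and targets. They hold 108 other genes, of which 103 are in the table and 88 were tested. Of these, 8 rose and 5 fell, which is 14.8% against 9.96% of all genes, with a median log2 change of 0.05. The counts per list below are to be read against the same 9.96%. The share called was 0% of the ligands, 13.33% of the receptors, 28.57% of the JAK kinases and STATs and 11.76% of the inhibitors. It was 15.38% of the STAT5 partners and 10% of the prolactin and STAT5 targets. For the STAT3 targets it was 9.09%, and for the ETS and progenitor list 27.27%. On FPKM values limma called 4 of them higher and 6 lower. Over all genes it called 1142 with 0.5 added to FPKM and 1157 with 0.1 added. With the replicate number as a block edgeR called 5 higher and 6 lower, and 1117 of all genes. Without shNC 3, 23 rose and 11 fell, which is 38.6% against 28.1%. Leaving out another single library gave between 3 and 11 calls: 4, 3 and 3 without shCUEDC1 1, 2 and 3, 7 without shNC 1 and 11 without shNC 2. The calls over all genes in these fits were, in the same order, 513, 468, 519, 688 and 1013, against 1377 with 6 libraries.

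PRL, the gene of prolactin itself, was between 0 and 0.37 TPM in shCUEDC1 and between 0 and 0.13 TPM in shNC. Of the 11 listed ligands 4 passed the filter. The cytokine gene LIF was the highest of them in each shNC library, at 2.58 to 3.47 TPM. In shCUEDC1 LIF was at 1.59 to 2.09 TPM and overlapped with IL6, at 1.55 to 2.40 TPM. By edgeR 0 of the 4 were called, with 1 at an unadjusted p below 0.05 and 0 called by DESeq2. Their median log2 change was -0.36. Of 15 other cytokine receptors tested, 2 fell and 13 were not called, with a median of -0.08. OSMR, the oncostatin M receptor that pairs with gp130, fell by 0.23 on the log2 scale to 162 ± 4.80 CPM in shCUEDC1, against 190 ± 8.86 CPM in shNC (SD, n = 3 each; edgeR adjusted p = 0.0209). IFNGR1, a chain of the interferon gamma receptor, fell by 0.37 on the log2 scale to 93.3 ± 2.28 CPM, against 121 ± 14.4 CPM.

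Among 7 other JAK kinases and STATs, 2 rose and 5 were not called, and the median log2 change was 0.20. STAT6, which interleukin 4 activates, rose to 152 ± 6.87 CPM in shCUEDC1, against 131 ± 4.27 CPM in shNC (log2 change 0.21, edgeR adjusted p = 0.0317). STAT3 fell and the STAT5 pair was not called, as given above. Among 17 other inhibitors, 2 rose and 15 were not called, with a median of -0.01. Both that rose belong to ubiquitin ligases: CBL, which acts on tyrosine kinases, by 0.32, and BTRC, an F-box protein known to mark the prolactin receptor for degradation, by 0.24. SOCS1, SOCS4, SOCS5, SOCS6 and SOCS7 were not called.

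Of 13 STAT5 partners and coactivators, 1 rose and 1 fell, with a median of -0.01. NFIB, a nuclear factor that cooperates with STAT5 at milk genes in the mouse, fell by 0.54 on the log2 scale to 60.6 ± 1.43 CPM in shCUEDC1, against 88.4 ± 11.3 CPM in shNC (edgeR adjusted p = 0.00474). GAB1, a docking protein of growth factor and cytokine receptors, rose by 0.30. Of 10 tested prolactin and STAT5 target genes, 1 fell and 9 were not called, with a median of -0.02. The fall was in LTF, the milk protein lactoferrin, at 16.6 ± 1.17 CPM in shCUEDC1, against 28.7 ± 5.63 CPM in shNC (log2 change -0.79, edgeR adjusted p = 0.00584). The casein CSN2 was listed at 0 TPM in all 3 shCUEDC1 libraries and in shNC 1 and 2, and at 0.11 TPM in shNC 3.

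PIP, the prolactin-induced protein of breast and salivary secretions, was picked out after its values were seen. It stood at 1483, 1567 and 1744 CPM in shCUEDC1 1, 2 and 3, against 850, 954 and 2004 CPM in shNC 1, 2 and 3. The library shNC 3 was above all others, and PIP was not called with 6 libraries (log2 change 0.33, edgeR adjusted p = 0.631). Without shNC 3 its log2 change was 0.83 (adjusted p = 0.00176).

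Of 11 STAT3 target genes, 1 rose and 10 were not called, with a median log2 change of 0.08. It was ICAM1, an adhesion molecule, at 124 ± 8.93 CPM in shCUEDC1 and 97.5 ± 6.74 CPM in shNC (log2 change 0.35, edgeR adjusted p = 0.0131). Of 11 ETS factors and luminal progenitor genes, 2 rose and 1 fell, with a median of 0.16. SPDEF, an ETS factor of secretory epithelium, rose to 204 ± 5.12 CPM in shCUEDC1, against 162 ± 2.51 CPM in shNC (log2 change 0.33, edgeR adjusted p = 0.00209). ELF2 rose by 0.22 (edgeR adjusted p = 0.0466), a call lost with DESeq2 (adjusted p = 0.0926). The ETS factors ELF1, ELF3, ELF4 and EHF were tested and not called with all 6 libraries. Without shNC 3 edgeR called EHF (log2 change 0.46) and ELF1 (0.23) as rises and ELF4 (-0.26) as a fall, but not ELF3. In that fit 5 genes of the list rose and 2 fell, which is 63.6% against 28.1% of all genes. This was the highest share of any list. In the same fit it was 25% for the ligands, 40% for the receptors and 42.86% for the JAK kinases and STATs. It was 23.53% for the inhibitors and 46.15% for the STAT5 partners. For the prolactin and STAT5 targets it was 30%, and for the STAT3 targets 36.36%. ALDH1A3, an aldehyde dehydrogenase of luminal progenitors, fell by 0.96 on the log2 scale to 12.1 ± 0.604 CPM in shCUEDC1, against 23.6 ± 5.73 CPM in shNC.

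Of the 12 genes named from the lists, NFIB and SPDEF were called in all 6 fits that left out 1 library. The other 10 lost the call in at least 1 such fit, and the highest edgeR adjusted p of each is given here. Without shCUEDC1 1 it was 0.131 for CBL and 0.157 for BTRC. Without shCUEDC1 2 it was 0.164 for STAT6, 0.0821 for ICAM1 and 0.0553 for ALDH1A3. Without shCUEDC1 3 it was 0.0938 for IFNGR1, 0.106 for OSMR, 0.0729 for GAB1, 0.0504 for LTF and 0.162 for ELF2. All 12 kept their direction in every one of the 6 fits. With all 6 libraries and 8 other settings of the filter, scaling, tool or block, ELF2 was called in 3, STAT6 and BTRC in 5 and CBL in 6, and the other 8 genes in all 8.

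**Figure D5:**
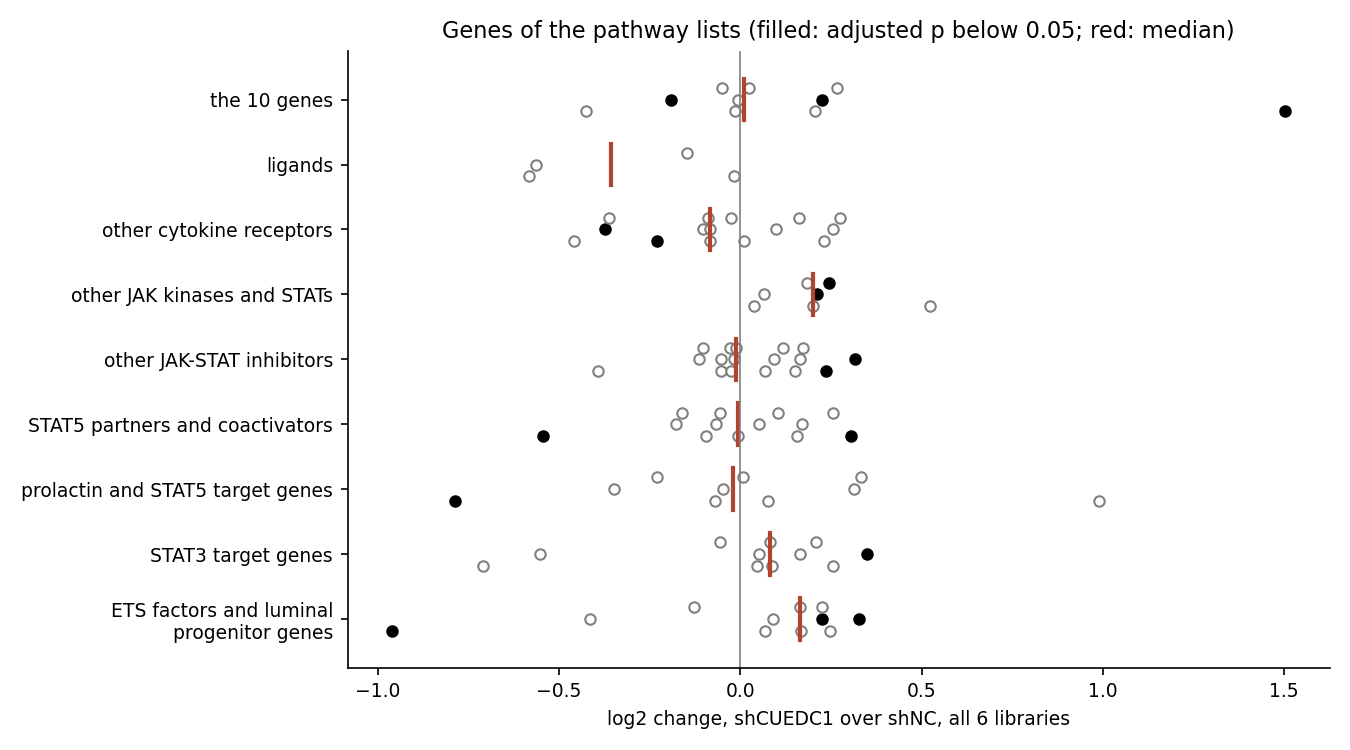
Log2 change, shCUEDC1 over shNC with all 6 libraries, of the 10 genes and of the tested genes of the 8 lists, 1 point per gene; filled points have an adjusted p below 0.05 and the red bar is the median. Filled points lie on both sides of 0, with SOCS2 (1.502) farthest to the right and ALDH1A3 (-0.96) farthest to the left.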

How the data were processed

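The authors deposited 1 table of 17758 genes holding, per the file headers, an estimated count of reads per gene (fractional, not normalised), FPKM and TPM values and a signal column of counts divided by a size factor, which was not used here, nor were the authors' group means. The genome build named is GRCh38 (patch p13), per the submitters' processing notes; no source used here names the aligner, counter or strand setting. Counts were rounded, filtered with filterByExpr (minimum count 10), normalised by TMM and compared with edgeR 4.0.16 (quasi-likelihood, robust) in R 4.3.3 over 13824 genes, after a check on simulated counts. CPM are TMM-normalised; the deposited TPM serve for levels between genes. SE and 95% intervals come from the same fit. Alternatives were RLE factors, 2 other filters, DESeq2 1.42.0, limma 3.58.1 (voom, and trend on log2(FPKM + 0.5) or with 0.1), a replicate block, and fits that each drop 1 library. The 10 genes and all lists were chosen with earlier results of these data known. Named beside the 10 were up to 4 called genes per list with the smallest p, and the 3 genes most like PRLR and SOCS2; 1 such list gene is not reported here. Gene positions are from GENCODE v29.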

Additional observations from a re-analysis of the deposited data

How the results depend on the processing

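With all 6 libraries, each alternative to the normalisation, filter or tool called SOCS2, STAT3 and ELF5 in the same direction. The replicate block did too (3 of the 10 genes, 11 of the other pathway genes and 1117 of all genes). The labels link same-numbered libraries by the number alone. After centring within each group, same-numbered libraries had correlations of 0.004 to 0.07, and not every library correlated best with its own number. With so few libraries per group, these values cannot decide whether same-numbered libraries were prepared together. Leaving out 1 library moved the number of called genes to between 0 and 5 of the 10, to between 3 and 34 of the 88 other pathway genes, and to between 468 and 3925 of all genes. The uncalled genes with a difference near 0 changed sign: JAK2 to 0.00162 with no filter and 2.24e-04 by limma-voom. With 1 library left out, the log2 difference ran from -0.0755 to 0.0969 for JAK2, from -0.15 to 0.0598 for STAT5A, from -0.0517 to 0.0461 for STAT5B and from -0.0437 to 0.0893 for CISH. The cause was not tested. SOCS2 had a log2 change of 0.95 on the log2(FPKM + 0.5) scale, which compresses low levels. With all 6 libraries 4 of the 12 named list genes lost the call under some setting, with a highest adjusted p of 0.0825 for STAT6, 0.1005 for CBL and 0.104 for BTRC (limma on FPKM) and 0.0926 for ELF2 (DESeq2). SOCS2 and SOCS3 rest on the fewest reads of the 10 genes; what depth alone limits was not tested.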
